A study of Mus musculus with 4 samples.

Results

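The genes described here code for the machinery that licenses replication origins, opens them and copies DNA, with the enzymes of deoxynucleotide supply and the E cyclins. They were chosen by name from a list of 45 genes, and all 45 were found among the 54446 rows of the deposited expression table, each on 1 row. Levels came from polyadenylated RNA of cultured satellite cells (muscle stem cells), isolated from the hindlimb of C57BL/6 mice and grown in F10 medium with 10% HS. The knockdown group had 2 samples treated with siRNA to LncMyoD (a lncRNA of muscle cells), and the control group had 2 samples given control siRNA. Cells were harvested after 48 h of siRNA. The treatment text given for the controls names LncMyoD as well, so the groups here follow the titles, descriptions and treatment tags. Whether replicates were separate cultures or animals is not stated, so p-values reflect the spread between these 4 samples alone, and it may be technical. The table had 0 rows named LncMyoD, and its level was not analysed here.

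Replication starts from sites bound by the origin recognition complex, where Cdc6 and Cdt1 load the MCM2-7 ring in G1. In S phase Cdc45 and GINS join the ring to form the active helicase, RPA coats the single strands, primase starts each strand, and the clamp PCNA, loaded by replication factor C, tethers the polymerases. Satellite cells divide as myoblasts before they leave the cell cycle and fuse, and many genes of this machinery are transcribed through E2F factors when cells enter S phase.

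The labels name satellite cells, and the libraries carried muscle lineage genes, with Myod1 and Myog high and the satellite cell marker Pax7 low. Myod1, the factor of committed myoblasts, stood between 583 and 698 FPKM (fragments mapped per kilobase of transcript, corrected for library size), and Pax7 between 0.625 and 1.40 FPKM. Myog, a factor of differentiating myoblasts, had 3406 and 2793 FPKM in knockdown and 4196 and 3931 FPKM in control. Its groups did not overlap, with a log2 fold change of -0.40, an unadjusted p of 0.00971 and a limma adjusted p of 0.607. The summed FPKM of the 7 satellite cell and myoblast markers, mostly Myog, was likewise lower in both knockdown libraries, at 5279 and 4751 against 6318 and 5983. Of 21 markers listed for other cell types of the hindlimb, 4 reached a mean of 1 FPKM, namely Col3a1, Col1a1, Eng and Mcam. Kdr, Ptprc, Adgre1 and S100b were listed at 0 in every library. The summed FPKM of the 4 smooth muscle and pericyte markers, mostly Mcam, was 1.45 and 0.674 in knockdown and 2.29 and 2.45 in control. That of the 5 fibro-adipogenic markers, mostly Col3a1, was 30.8 and 31.9 against 27.2 and 29.2. The summed FPKM of the 3 markers of cycling cells, Mki67, Top2a and Ccnb1, was mostly Ccnb1. It was 84.5 and 86.7 in knockdown and 93.4 and 74.3 in control, so the groups overlapped in the sum, as in Ccnb1. Mki67 and Top2a were each higher in both knockdown libraries, Mki67 narrowly (lower knockdown library 6.585 FPKM, higher control 6.573). The part of these marker differences in the results was not tested.

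The RefSeq promoter table for GRCm38.p6 held 37 of the 45 genes, in 45 windows of 250 bases before and 50 bases after a transcription start. Mcm4, Gins1, Gins2, Gins4, Rfc2, Prim2, Pole and Ccne2 were not matched. Each window was searched on both strands for the E2F letters TTTCCCGC, TTTCGCGC, TTTGCCGC and TTTGGCGC, matches of which can overlap. The E2F letters were found for 14 of 37 matched genes (37.8%), against 5.03% of the 7609 expressed genes with such windows, and in 31.1% of the genes' own windows against 2.26% of all windows. By role they were found for 4 of 5 matched MCM2-7 genes, for both licensing genes, for 3 of 6 matched polymerase genes and for 2 of 6 genes of the origin recognition complex. They were found for none of the 3 RPA genes and none of the 4 genes of nucleotide supply. The remaining roles had 1 of 5 matched clamp and loader genes, 1 of 3 helicase activation genes, 1 of 2 lagging strand genes and 0 of 1 cyclin E gene. Only these exact letters within the windows were searched, so a gene without a match may still hold an E2F site. The letters CCAAT, the box bound by the factor NF-Y, were found on either strand for 23 of 37 genes (62.2%) against 43.9% of expressed genes. The letters TTTGAA, known from promoters of later cell cycle genes as the CHR element, were found for 13.5% against 14.1%.

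Orc1, Gins3 and Rfc1 come up below among the members with the widest group differences, and Mcm6 is the most abundant MCM gene. Shown here are the stretches of 250 bases before their RefSeq starts. Each runs 5′ to 3′ along the gene's strand, with the E2F letters in capitals. They lie at chr4:108579204-108579453 (plus strand), chr8:95633309-95633558 (plus), chr5:65335640-65335889 (minus) and chr1:128359706-128359955 (minus). Orc1 and Gins3 each hold the letters once, Mcm6 holds 3 matches of which a pair overlap, and Rfc1 has no match in this window. In the GENCODE gene models, used below for exons and coordinates, Orc1, Gins3 and Rfc1 start inside these stretches. Those starts are at 108579423, 95633453 and 65335670, in that order. The E2F letters shown for Orc1 and Gins3 lie past them, within the GENCODE genes.
Orc1: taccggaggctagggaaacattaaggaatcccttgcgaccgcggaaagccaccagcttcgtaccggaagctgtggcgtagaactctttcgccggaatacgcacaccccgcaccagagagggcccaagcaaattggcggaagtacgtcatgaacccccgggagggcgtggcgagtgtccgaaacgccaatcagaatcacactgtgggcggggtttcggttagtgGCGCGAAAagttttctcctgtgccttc
Gins3: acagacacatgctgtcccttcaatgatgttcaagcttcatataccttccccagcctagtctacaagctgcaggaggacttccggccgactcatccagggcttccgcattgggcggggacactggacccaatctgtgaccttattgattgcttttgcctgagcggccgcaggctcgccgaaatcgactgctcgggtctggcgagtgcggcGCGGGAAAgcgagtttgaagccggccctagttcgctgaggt
Rfc1: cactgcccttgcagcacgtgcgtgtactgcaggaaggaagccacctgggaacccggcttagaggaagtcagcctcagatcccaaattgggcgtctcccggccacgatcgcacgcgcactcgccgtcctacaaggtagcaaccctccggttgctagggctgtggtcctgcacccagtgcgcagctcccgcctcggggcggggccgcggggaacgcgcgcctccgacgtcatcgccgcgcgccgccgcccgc
Mcm6: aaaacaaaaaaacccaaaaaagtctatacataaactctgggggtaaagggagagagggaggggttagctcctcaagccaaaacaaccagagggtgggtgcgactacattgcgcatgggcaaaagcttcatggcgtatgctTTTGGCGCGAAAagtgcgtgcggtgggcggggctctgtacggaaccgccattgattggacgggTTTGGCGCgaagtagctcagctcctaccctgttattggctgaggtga

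The replication genes were expressed in both groups, at widely different levels, and none differed between knockdown and control past the adjusted threshold. All 45 averaged 1 FPKM or more across the libraries, the minimum for testing, so none was lost to that filter. In bulk RNA of this kind, fewer cells in S phase and less of a transcript per cell cannot be told apart. Their mean levels ran from 1.46 FPKM for Pole, the catalytic subunit of polymerase epsilon, to 802 FPKM for Rrm2, the small subunit of ribonucleotide reductase. The median member stood at the 71.4th percentile of the 10900 expressed genes. Summed over the 45 genes, the level was 1873 and 1851 FPKM in knockdown and 1860 and 1873 FPKM in control. The groups overlap in that sum.

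By limma on log2(FPKM + 1), with Benjamini-Hochberg adjustment over all 10900 genes, 0 of 45 members passed an adjusted p of 0.05, where 0.0550% of all genes did. At an unadjusted p under 0.05 there were 3 members, or 6.67%, against 7.08% of all genes. In 10 members (22.2%) both knockdown libraries exceeded both controls, against 22.1% of all genes. In 8 members (17.8%) both were lower, against 16.3%. The adjusted p-values of the members ran from 0.523 to 0.997. These shares are near those of all genes. The median log2 fold change, knockdown minus control, was 0.03 over the members and 0.03 over all genes tested, with 27 members positive and 18 negative. Dividing each library by its median ratio to the others gave 23 positive and 22 negative and a member median of 0.0028.

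The intervals rest on 2 samples per group, whose spread may be technical, and are not adjusted over the 45 genes. The half-width of the 95% interval had a median of 0.36 on the log2 scale and ran from 0.17 for Rrm2 to 1.72 for Fen1, the flap endonuclease. For 39 of the 45 genes the interval lay within 1 log2 unit, a 2-fold difference of FPKM + 1, on either side of 0. For 25 it lay within 0.5. Over all 10900 genes tested, 9271 intervals lay within 1 and 2939 within 0.5. The 6 members with an interval beyond 1 unit were Gins1, Orc1, Gins3, Fen1, Pold1 and Pole2. For single genes an exact permutation test over 2 against 2 samples cannot go below 0.333, so the fit over all genes is the test used throughout. For a transcript of 1 kb, a level of 1 FPKM corresponded to 36.7 to 41.1 reads of 150 nt, depending on the library.

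**Figure D1:**
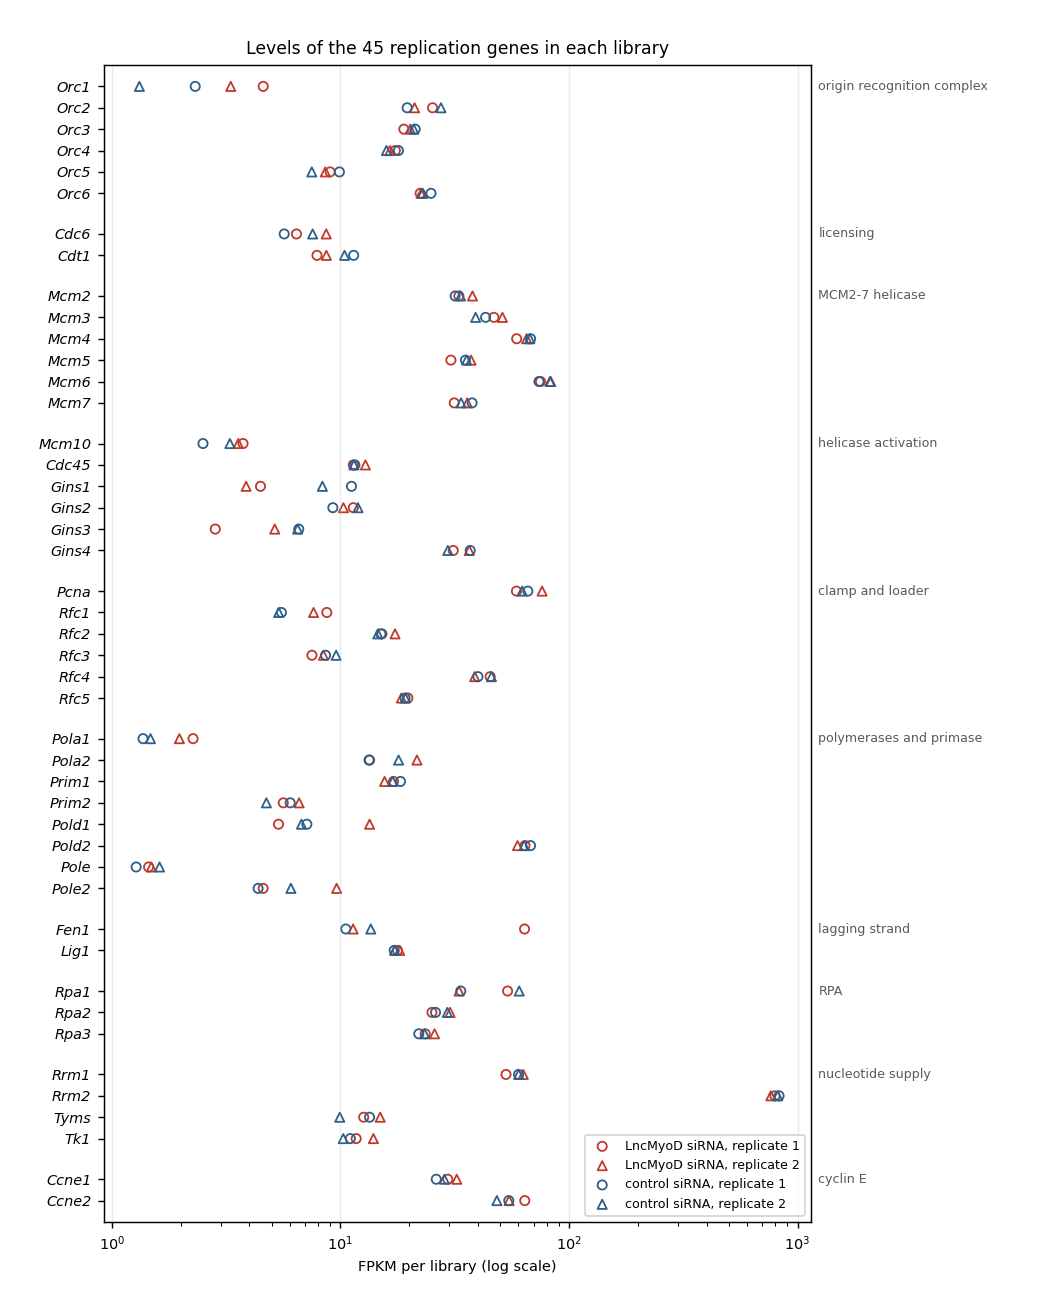
FPKM of each of the 45 replication genes (rows, by role) in each of the 4 libraries, on a log scale; red marks are knockdown, blue marks control, circles replicate 1 and triangles replicate 2. Rrm2 lies far to the right of all others near 802 FPKM, and the single Fen1 mark at 63.9 FPKM belongs to knockdown replicate 1.

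**Figure D2:**
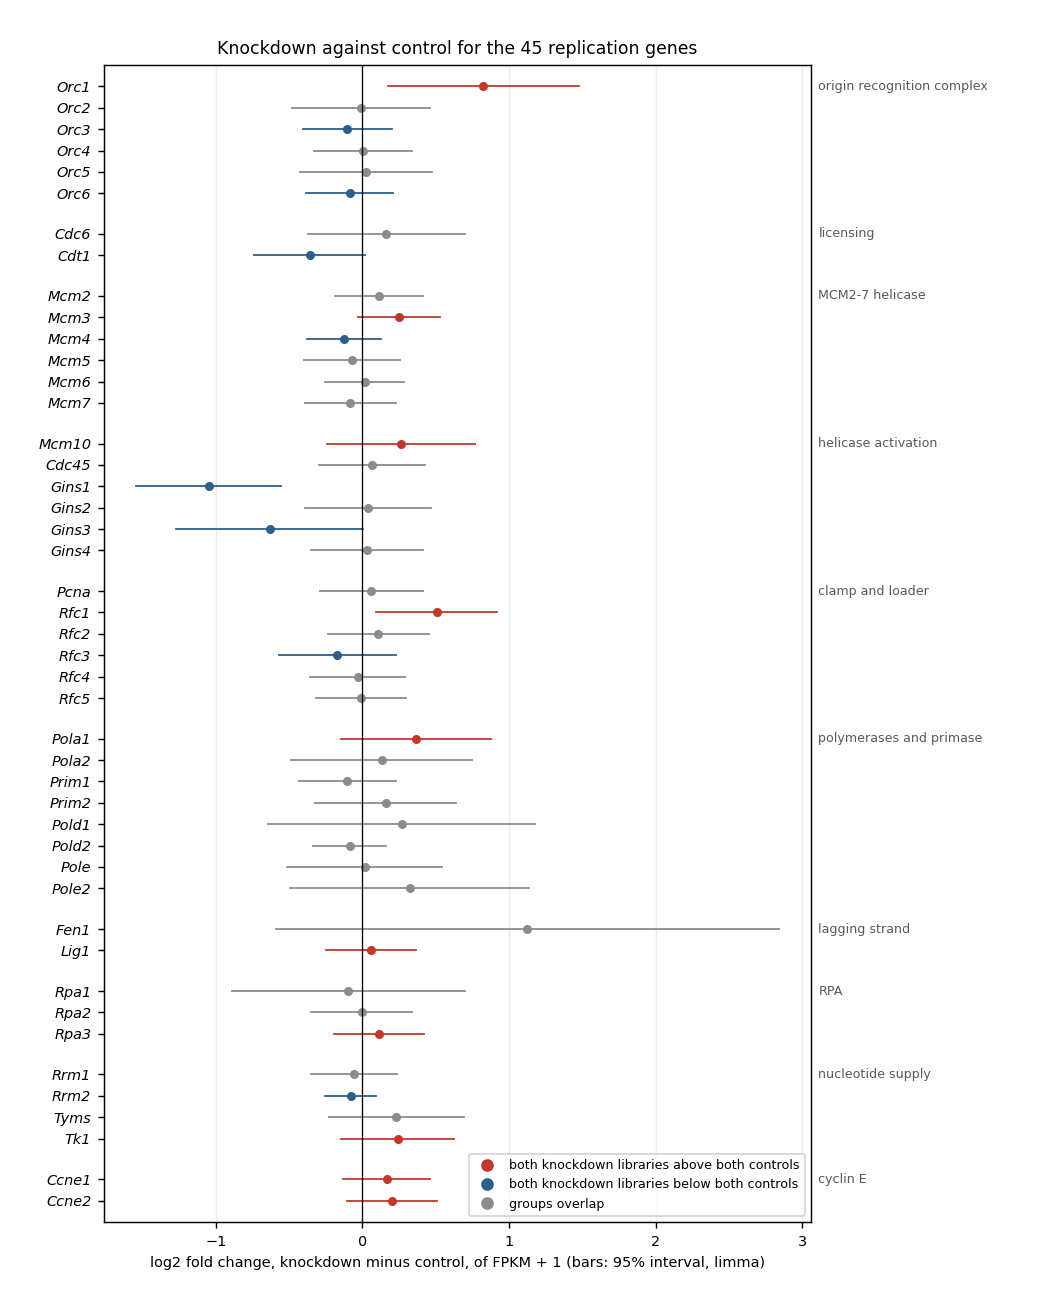
Log2 fold change of FPKM + 1, knockdown minus control, for each gene, with its 95% interval from limma. Red marks 10 genes whose knockdown libraries both exceed both controls, blue marks 8 with the reverse, and grey marks 27 genes whose groups overlap. The intervals of Gins1, Orc1 and Rfc1 leave out 0.

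In the origin recognition complex, the ATP-dependent platform that marks origins, Orc1 was the member with the widest difference. Orc1, an ATPase subunit, had 4.59 and 3.31 FPKM in knockdown and 2.32 and 1.32 FPKM in control. Both knockdown libraries were higher, and the means of 3.95 ± 0.906 and 1.82 ± 0.705 FPKM (SD, n = 2) differed 2.17-fold. The log2 fold change was 0.82 ± 0.27 (SE), with an unadjusted p of 0.0210 and a limma adjusted p of 0.640. Orc1 (ENSMUSG00000028587, chromosome 4, 108579423 to 108614833, plus strand, GRCm38) was also the least abundant subunit. Over its longest annotated transcript of 3014 bases, its levels correspond to 155 to 507 reads per library.

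The other origin recognition subunits differed little between the groups. Orc3 had 18.9 and 20.2 FPKM in knockdown and 21.2 and 20.9 FPKM in control, without overlap, and a log2 fold change of -0.10 (limma adjusted p 0.890). Orc6 had 22.3 and 22.5 FPKM in knockdown and 24.9 and 22.9 FPKM in control, also without overlap, and a log2 fold change of -0.09 (limma adjusted p 0.909). The groups of Orc2, Orc4 and Orc5 overlapped, with log2 fold changes from -0.0076 to 0.03. Of the exonic bases of Orc2, 29.8% are shared with Nif3l1 on the opposite strand (no strand setting is stated). Orc1 made up 4.71% and 3.59% of the complex's summed FPKM in knockdown and 2.42% and 1.37% in control, while the sum itself was 97.6 and 92.2 FPKM against 95.9 and 96.1.

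The licensing factors Cdt1 and Cdc6 had log2 fold changes of opposite sign, and neither passed the test. Cdt1, the MCM loader that is destroyed in S phase, had 7.90 and 8.68 FPKM in knockdown and 11.4 and 10.4 FPKM in control. Both knockdown libraries were lower, by a log2 fold change of -0.36 ± 0.16 (SE), with a 95% interval of -0.74 to 0.02 and a limma adjusted p of 0.698. Cdc6, its partner in loading, had 6.42 and 8.67 FPKM in knockdown and 5.68 and 7.56 FPKM in control, so its groups overlapped (log2 fold change 0.16).

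The MCM2-7 ring, whose subunits assemble in equal numbers, was among the more abundant complexes. Its summed level was 276 and 311 FPKM in knockdown and 290 and 292 FPKM in control. Mcm6 was the highest subunit in every library, between 73.9 and 83.2 FPKM, and Mcm4 was next, between 59.0 and 67.9 FPKM. Mcm2, Mcm5 and Mcm7 lay between 30.4 and 37.8 FPKM, and their order changed between libraries. The highest subunit was 2.32 to 2.47 times the lowest in each library.

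Within the ring, Mcm3 and Mcm4 were the subunits whose groups did not overlap. Mcm3 had 46.9 and 51.1 FPKM in knockdown and 43.2 and 39.0 FPKM in control, and the log2 difference was 0.25 (95% interval -0.03 to 0.53, limma adjusted p 0.703). Mcm4 had 59.0 and 65.3 FPKM in knockdown and 67.9 and 67.4 FPKM in control, a log2 fold change of -0.12 (limma adjusted p 0.831). The ratio of Mcm3 to Mcm4, which does not depend on library scaling, was 0.795 and 0.783 in knockdown and 0.635 and 0.579 in control. It was taken for the subunits already seen without overlap, in opposite directions, so it restates their values and is no separate test. The other 4 subunits had log2 fold changes between -0.08 and 0.11.

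Helicase activation held the 2 members with the most negative log2 fold changes, Gins1 and Gins3. Gins1, also known as Psf1, a subunit of the 4-part GINS complex, had 4.47 and 3.87 FPKM in knockdown and 11.2 and 8.34 FPKM in control. Both knockdown libraries lay well below both controls, and the ratio of the means of 4.17 ± 0.427 and 9.76 ± 2.01 FPKM (SD, n = 2) was 0.427. On the log2 scale the difference was -1.05 ± 0.20 (SE), with 95% bounds of -1.54 and -0.55. Its unadjusted p of 0.00201 was the lowest among the 45 genes, and its limma adjusted p was 0.523. Gins1 (ENSMUSG00000027454, chromosome 2, 150905400 to 150931280, plus strand, GRCm38) shares no exonic base with another annotated gene. It has 4 annotated transcripts of 339 to 1087 bases, and over the longest its levels correspond to 173 to 476 reads per library.

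Gins3, another GINS subunit, had 2.83 and 5.16 FPKM in knockdown and 6.57 and 6.50 FPKM in control. Both knockdown libraries were lower, but on the log2 scale they differed more from each other than their mean did from the controls, and the log2 fold change was -0.63 (95% interval -1.27 to 0.01, limma adjusted p 0.698). It was -0.97 without knockdown replicate 2 and -0.29 without knockdown replicate 1. Gins2 and Gins4 had log2 fold changes of 0.04 and 0.03, and their groups overlapped. Gins4 was the highest subunit in every library, with 31.2 and 36.6 FPKM in knockdown and 37.0 and 29.5 FPKM in control. Of the exonic bases of Gins2, 67.3% are shared with Gse1 on the opposite strand, which stood at 2.44 FPKM or less.

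The subunits of GINS stood at unequal levels, more so in both knockdown libraries. Gins4, the highest subunit, stood 11.0 and 9.47 times above the lowest in knockdown and 5.62 and 4.54 times in control; the lowest was Gins1 in knockdown replicate 2 and Gins3 in the other libraries. Gins1 made up 8.97% and 6.91% of the summed GINS level in knockdown and 17.5% and 14.8% in control. The ratio of Gins1 to Gins4 was 0.143 and 0.106 in knockdown and 0.302 and 0.283 in control. These shares and ratios restate the Gins1 and Gins3 values without library scaling and are no separate test.

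Mcm10 and Cdc45 complete the activation step. Mcm10, which is needed for origin firing, had 3.75 and 3.57 FPKM in knockdown and 2.50 and 3.28 FPKM in control, a log2 fold change of 0.27 (limma adjusted p 0.815). The groups did not overlap, but the gap between the controls was of like size. Cdc45, the helicase cofactor, stood between 11.4 and 12.9 FPKM in all libraries, with a log2 fold change of 0.07.

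**Figure D3:**
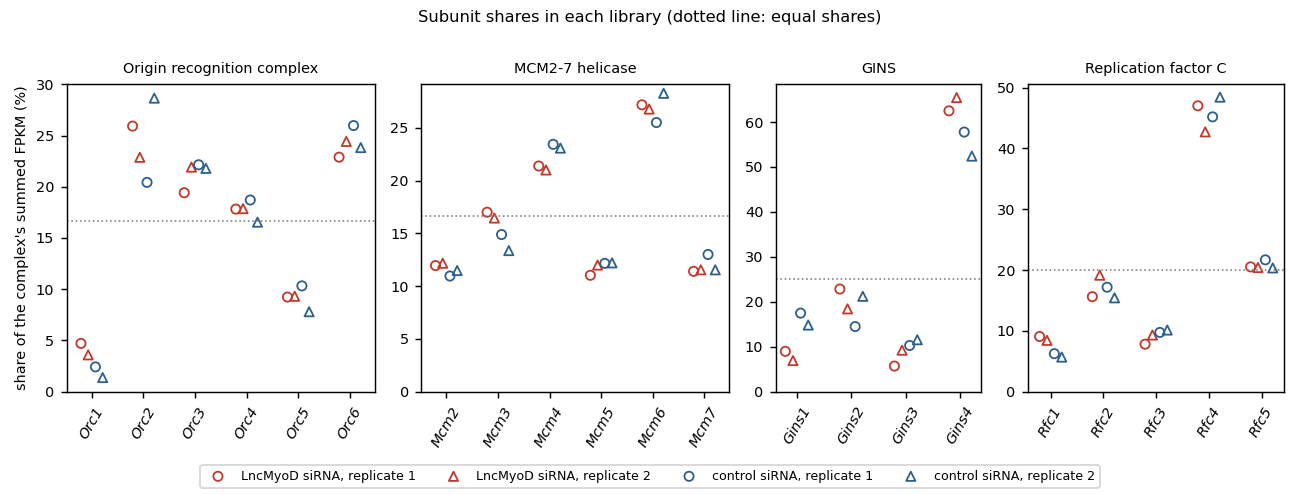
Share of each subunit in the summed FPKM of its complex (percent), per library, for the origin recognition complex, the MCM2-7 helicase, GINS and replication factor C; the dotted line marks equal shares. Gins1 lies at 6.91% to 8.97% in knockdown and 14.8% to 17.5% in control, while Mcm6 lies between 25.5% and 28.3% in all 4 libraries.

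Among the clamp and its loader, Rfc1, the large subunit of replication factor C, had the widest difference. It had 8.72 and 7.63 FPKM in knockdown and 5.52 and 5.37 FPKM in control. Both knockdown libraries were higher, and the means of 8.18 ± 0.770 and 5.45 ± 0.107 FPKM (SD, n = 2) differed 1.50-fold. The log2 fold change was 0.51 ± 0.17 (SE), with an unadjusted p of 0.0240 and a limma adjusted p of 0.645. Rfc1 (ENSMUSG00000029191, chromosome 5, 65261850 to 65335670, minus strand, GRCm38) shares no exonic base with another gene.

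The small loader subunits differed less. Rfc3 had 7.50 and 8.43 FPKM in knockdown and 8.61 and 9.58 FPKM in control, without overlap, and a log2 fold change of -0.17 (limma adjusted p 0.855). Rfc2, Rfc4 and Rfc5 overlapped between groups, with log2 fold changes of 0.11, -0.03 and -0.0078. Rfc4 was the highest loader subunit in every library, between 38.7 and 45.8 FPKM. Pcna, the sliding clamp and a common marker of S phase cells, had 58.9 and 76.3 FPKM in knockdown and 66.1 and 62.4 FPKM in control. Its groups overlapped, and the log2 difference was 0.06 (95% interval -0.29 to 0.41).

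Of the 8 polymerase and primase genes, Pola1 was the only member without overlap between groups. Pola1, the catalytic subunit of polymerase alpha, had 2.27 and 1.98 FPKM in knockdown and 1.37 and 1.48 FPKM in control, a log2 fold change of 0.36 (95% interval -0.15 to 0.87, limma adjusted p 0.750). Its partner Pola2 had 13.4 and 21.6 FPKM in knockdown and 13.3 and 18.0 FPKM in control, with replicate gaps wider than the group difference. Prim1 and Prim2, the primase subunits, had log2 fold changes of -0.10 and 0.16, and Pold2, the second subunit of polymerase delta, had -0.09. Pole had 1.45 and 1.49 FPKM in knockdown and 1.28 and 1.62 FPKM in control.

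Pold1 and Pole2 were set apart by a single library. Pold1, the catalytic subunit of polymerase delta, had 5.36 FPKM in knockdown replicate 1 and 13.4 FPKM in knockdown replicate 2, with 7.13 and 6.75 FPKM in control. Pole2, the second subunit of polymerase epsilon, had 4.59 and 9.63 FPKM in knockdown and 4.36 and 6.07 FPKM in control. For both, knockdown replicate 1 lay within or below the controls and knockdown replicate 2 above them.

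On the lagging strand, the level of Fen1 depended on 1 library. Fen1, which removes the flaps of Okazaki fragments, had 63.9 and 11.4 FPKM in knockdown and 10.6 and 13.6 FPKM in control. Knockdown replicate 1 was high and knockdown replicate 2 lay within the controls, so the log2 fold change of 1.13 had a 95% interval of -0.59 to 2.84 (limma adjusted p 0.767). It was -0.07 without knockdown replicate 1 and 2.32 without knockdown replicate 2. Fen1 (ENSMUSG00000024742, chromosome 19, 10199132 to 10204169, minus strand, GRCm38) shares 78.8% of its exonic bases with the antisense gene Gm10143 and 5.37% with Tmem258, both on the opposite strand. Gm10143 had 3.08 and 0.896 FPKM in knockdown and 4.09 and 0.490 FPKM in control, and Tmem258 stood between 30.2 and 32.0 FPKM in all libraries. With Gm10143 added to Fen1, the log2 fold change was 0.97.

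Lig1, the ligase that seals the fragments, was steady across libraries. It had 17.8 and 18.2 FPKM in knockdown and 17.2 and 17.3 FPKM in control, without overlap, with a log2 difference of 0.06 (95% interval -0.25 to 0.36). Of the RPA subunits, which bind single strands as a trimer, Rpa1 varied within each group. It had 53.9 and 33.0 FPKM in knockdown and 33.6 and 60.6 FPKM in control, so knockdown replicate 1 and control replicate 2 were both high. Rpa2 stood between 25.1 and 30.2 FPKM, with a log2 fold change of -0.0056. Rpa3 had 23.5 and 25.8 FPKM in knockdown and 22.0 and 23.4 FPKM in control, without overlap, and a log2 fold change of 0.11 (limma adjusted p 0.873).

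**Figure D4:**
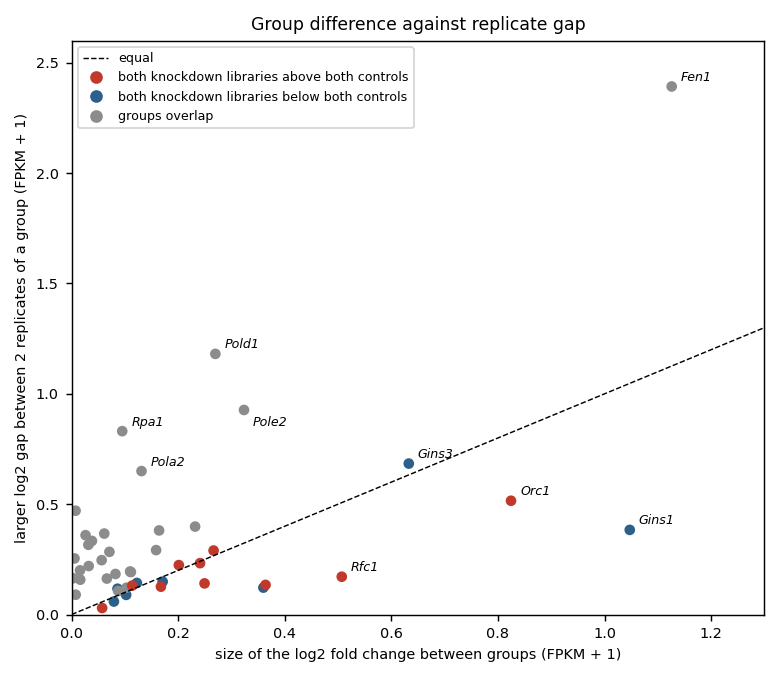
Size of the log2 fold change between groups (x axis) against the larger log2 gap between the 2 replicates of a group (y axis), for each of the 45 genes, on the FPKM + 1 scale, coloured as in the plot of changes. The 33 genes above the dashed line of equality had a replicate gap larger than their group difference, and Gins1, Orc1 and Rfc1 lie below it.

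The replicate gap exceeded the group difference for 33 of the 45 genes (73.3%) and for 74.5% of all genes tested. The median gap between replicates was 0.17 log2 units in knockdown and 0.14 in control over the members, and 0.22 and 0.16 over all genes. Fen1 and Pold1 were the 2 members with a gap over 1 log2 unit in knockdown, and 0 members had such a gap in control.

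Nucleotide supply was led by Rrm2. This subunit, which carries the radical that reduces ribonucleotides and is made in S phase, had 796 and 764 FPKM in knockdown and 830 and 819 FPKM in control. Both knockdown libraries were lower. The log2 difference was -0.08 (95% interval -0.25 to 0.10, limma adjusted p 0.845), and with quantile normalization the value was 0.01. Its level placed it at the 99.7th percentile of expressed genes. Rrm1, the large subunit of the same enzyme, had 53.0 and 63.1 FPKM in knockdown and 60.2 and 60.2 FPKM in control. Rrm2 thus stood 12.1 to 15.0 times as high as Rrm1, with 15.0 and 12.1 in knockdown and 13.8 and 13.6 in control.

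The pyrimidine enzymes stood lower. Tk1, thymidine kinase, had 11.7 and 13.9 FPKM in knockdown and 11.0 and 10.3 FPKM in control, without overlap, and a log2 fold change of 0.24 (95% interval -0.14 to 0.62, limma adjusted p 0.771). Tyms, thymidylate synthase, had 12.6 and 14.9 FPKM in knockdown and 13.4 and 9.93 FPKM in control, so its groups overlapped.

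Both E cyclins, which activate CDK2 at S phase entry, were higher in both knockdown libraries, and neither passed the test. Ccne1 had 29.5 and 32.3 FPKM in knockdown and 26.3 and 28.5 FPKM in control, and the log2 difference was 0.17 (95% interval -0.13 to 0.46, limma adjusted p 0.806). Ccne2 had 64.1 and 54.7 FPKM in knockdown and 54.5 and 48.4 FPKM in control, and the log2 difference was 0.20 (95% interval -0.11 to 0.51, limma adjusted p 0.767). The lower Ccne2 knockdown library and the higher control nearly touched. Of the exonic bases of Ccne2, 17.4% are shared with Ints8 on the opposite strand.

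The 14 members with the E2F letters in their promoter windows had a median log2 fold change of 0.04, from -0.63 for Gins3 to 0.82 for Orc1, with 4 above and 4 below the controls without overlap. The 23 without them had a median of 0.03, from -0.10 to 1.13, with 5 above and 2 below. Over all genes tested 22.1% lay above and 16.3% below, and with so few members in each set nothing is read from these counts.

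A further list of 57 genes of replication control and the G1/S transition, none of them among the 45, had 52 genes above the filter. By limma 0 of the 52 passed the adjusted threshold, and 5 (9.62%) had an unadjusted p under 0.05, against 7.08% of all genes tested. Without overlap, 15 (28.8%) lay above the controls and 8 (15.4%) below, against 22.1% and 16.3% of all genes. The median log2 fold change was 0.09, against 0.03 over all genes. Ticrr, Recql4, Mcm9, Rrm2b and Cdkn1b had a mean below 1 FPKM and were not tested. The genes named next had log2 fold changes of both signs. Chtf8, of an alternative clamp loader, had 3.85 and 3.87 FPKM in knockdown and 1.46 and 0.342 FPKM in control (limma adjusted p 0.523). A second gene model of the same name covers 91.8% of the Chtf8 exons. Top2a, the topoisomerase that untangles copied DNA, had 17.1 and 21.7 FPKM against 12.7 and 13.5, with a log2 fold change of 0.53 (limma adjusted p 0.627). E2f8, a repressor of E2F genes, had 16.8 and 18.2 FPKM against 24.2 and 22.1, with a log2 fold change of -0.39 (limma adjusted p 0.649). Cdkn1a, the inhibitor p21, had 384 and 347 FPKM against 472 and 459, with a log2 fold change of -0.35 (limma adjusted p 0.566). Mki67, a marker of cycling cells, stood at 6.58 and 8.28 FPKM in knockdown and 5.78 and 6.57 FPKM in control. Ccnb1, the mitotic cyclin B1, had 60.8 and 56.7 FPKM in knockdown and 75.0 and 54.2 FPKM in control, and its groups overlapped.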

How the data were processed

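RNA from 4 samples, 2 per group, was made into SMART-Seq v4 cDNA and sequenced as paired reads of 150 nt on an Illumina NextSeq, per the labels' protocols. Build mm10, StringTie 1.3.3, HISAT2 2.1.0, Trimmomatic 0.36, SAMtools 1.3 and bcl2fastq 2.19 appear in the submitters' processing notes. No strand setting or annotation release is given in those notes or the labels. The authors deposited FPKM per gene and sample, a unit read from the values; 0 sample columns were left unmapped. The columns summed to between 317223 and 322496.

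Reads per FPKM were read from genes with 1 exon, whose FPKM times length lay on whole multiples of a step, within 0.1 of a step, for 87.2% to 88.0% of values (chance 20%). Depth differed by 1.12 times between libraries. No count model was used, since whole reads were not recovered for genes with several exons.

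Genes averaging 1 FPKM or more were tested with limma 3.58.1 (R 4.3.3, trended variance, 2 residual and 4.09 prior degrees of freedom) on log2(FPKM + 1), two-sided, adjusted by Benjamini-Hochberg with a threshold of 0.05. Fold changes on this scale understate those of low genes. The steps were run on simulated data, where the only limit set was on the mean bias of the fold changes. That run is not used here to judge how many true differences would be called. Alternatives were a replicate block, a pseudocount of 0.1, no filter or a minimum of 5 FPKM, quantile or median-ratio scaling, no trend, and each library left out. Summing rows that share exons was chosen after the data were seen. Exons came from GENCODE M21 (GRCm38), and promoters from RefSeq. Python 3.11.15 with matplotlib 3.10.9 drew the plots.

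The members and lists were chosen with earlier results of these data known. The rule named all 45 genes, with full values for any with an unadjusted p under 0.05 or without overlap between groups, and of the further list the 4 with the lowest p. Fen1, Pold1, Pole2, Rpa1 and other members with overlapping groups were given per library for their role or spread.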

Additional observations from a re-analysis of the deposited data

How the results depend on the processing

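Under all 12 alternatives 0 of the 45 members and 0 genes of the further list passed the adjusted threshold. Over all genes 6 were called, against 3 with the replicate block, 0 without the filter on low values, and 5 to 15 with 1 library left out, where 15 were called without knockdown replicate 1. The median log2 fold change of the members was 0.03, and -0.0043 to 0.072 with 1 library left out. It was 0.072 without knockdown replicate 1 and -0.0043 without control replicate 1. The median over all genes tested moved as well, to 0.054 and 0.021 in the same fits, in that order. Gins1 and Rfc1 kept an unadjusted p under 0.05 by limma in every alternative with all 4 libraries, and Orc1 in each of these where it was tested. With the minimum of 5 FPKM 41 members were tested, Orc1 not among them. Limma adjusted p-values of Gins1 ran from 0.420 to 0.734 in the alternatives with all 4 libraries. With 1 library left out the log2 fold change was -1.24 to -0.86 for Gins1, 0.57 to 1.08 for Orc1 and 0.42 to 0.59 for Rfc1. In the 4 alternatives that leave out a library, 1 group holds a lone sample, which is assumed to vary like the other group's pair and the spread shared over genes, so those are weak checks. Orc1 and Rfc1 did not keep an unadjusted p under 0.05 by limma in all of these 4. Rrm2 had 0.014 with quantile normalization, and Fen1 had -0.070 without knockdown replicate 1 and 2.32 without knockdown replicate 2. The causes were not tested. Samples with the same replicate number did not deviate together (r = -0.02 across 10900 genes, which are not independent), so the numbers are not taken as a pairing; with the block, 4 members had an unadjusted p under 0.05 against 3 without it. For a transcript of 1 kb, 1 FPKM corresponded to 36.7 to 41.1 reads, and over its longest transcript Orc1 had 155 to 507 reads per library.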
